A study of Homo sapiens with 12 samples.

Results

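The genes described here are 10 receptor tyrosine kinases outside the ERBB family (MET, AXL, FGFR1, FGFR2, FGFR3, FGFR4, RET, EPHA2, DDR1 and MST1R), which were taken by symbol from the 26485 genes of the deposited table. Cells of BT474, an established HER2-positive luminal breast cancer line labelled wild type, were kept under 1 µM lapatinib, which blocks the kinases HER2 and EGFR. To follow the steps from sensitivity to resistance, mRNA was sequenced from Control cells at day 0, drug-tolerant persisters (DTP) at day 9, month-6 cells that had expanded under the drug (DTEP) and long-term resistant cells (LR, labelled Resistant) at month 9, with 3 libraries each. Control is taken as untreated from its titles (Control, day 0), although its treatment label also names the drug. The libraries of a group are called technical replicates in the study and elsewhere parallel plates of 1 line, so the p-values measure the spread between libraries only.

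A receptor tyrosine kinase is a membrane protein that dimerises when a ligand binds outside the cell and then phosphorylates tyrosines on itself, which recruits adaptors that start the RAS/ERK and PI3K/AKT cascades. Because HER2 feeds the same cascades, another receptor that is active while HER2 is inhibited can carry the signal past the block, and such receptors are known as bypass receptors. mRNA levels do not measure the activity of the receptor proteins. The members belong to the fibroblast growth factor receptors (FGFR1 to FGFR4), the receptors of hepatocyte growth factor and macrophage-stimulating protein (MET and MST1R, the latter also known as RON), the receptor of glial cell line-derived neurotrophic factors (RET), the receptors of collagen (DDR1) and of membrane-bound ephrins (EPHA2), and the TAM family (AXL).

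Values are normalised read counts, which are reads scaled to a fixed library total with a trimmed-mean correction. Depth was 16383363 to 25030482 assigned reads, so that a single read was worth 0.0412 to 0.0576 and a library without a read allowed a level of up to 0.124 to 0.173 (3 reads, counting error only). DTEP replicate 3 stood apart from its group. Across genes, which are not independent replicates, its Pearson's r was 0.971 to 0.986 with the LR libraries and 0.934 to 0.962 with the other DTEP libraries. The luminal markers (7 of 7 detected) had a summed level of 10520 to 11263 in Control and 12878 to 15300 in DTP libraries, but of 4240 to 6171 in DTEP and 3991 to 5450 in LR. The markers did not move as one. ERBB2, which encodes HER2 and was the largest part of the sum in Control, ranged from 6356 to 6833 there and from 1556 to 1897 in LR, and CDH1 (E-cadherin) from 1094 to 1146 and from 60.6 to 91.1. The keratins KRT8, KRT18 and KRT19 were also lower in every LR library than in any Control library. GATA3, a luminal transcription factor, was higher, at 183 to 198 in Control and 910 to 1572 in LR, as was EPCAM, at 196 to 212 and 224 to 275. The markers of leukocytes (3 genes) stayed at or below 0.0957, the basal keratins KRT5 and KRT14 at or below 0.0969, and the endothelial marker PECAM1 at or below 0.217. The basal marker TP63 ranged from 4.29 to 5.52 in Control and from 16.4 to 65.6 in LR, and the endothelial marker VWF from 7.77 to 8.57 in Control and was at most 0.166 in LR. Of the 5 fibroblast markers only COL1A1 reached 1, at 50.9 to 61.7 in Control and 98.4 to 130 in LR. The 5 markers of a mesenchymal state of carcinoma cells were mixed. VIM had 57.6 to 59.4 in Control and no read in LR, and FN1 5.47 to 7.97 and 0.277 to 1.16. ZEB1 was higher in LR (0.217 to 0.326 in Control, 1.07 to 1.35 in LR), the CDH2 levels in LR (2.03 to 8.96) spanned those in Control and ZEB2 stayed at or below 0.124. GNAQ, a G protein subunit that most cells express, had a mean of 128 in Control and 0.0323 in LR. That all libraries are BT474 rests on the labels. Whether the DTEP and LR cultures are the same line as Control was not tested, and every late value set against Control carries that limit. The part of these shifts in the receptor values was not tested either.

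To show what lies upstream of the receptors that changed most, the bases before the start of 4 genes are printed. Each stretch is the 250 bases before the RefSeq start, 5′ to 3′ on the gene's strand (RefSeq, GRCh38.p14). Among the members, FGFR4 and MST1R are the pair that rose most from DTP to DTEP, and MET and FGFR3 the pair that fell most from Control to LR. Capitals mark GC boxes (GGGCGG on either strand), the core motif of SP/KLF factors. Where boxes overlap they form 1 longer run of capitals.
FGFR4, chr5:177086665-177086914, plus strand: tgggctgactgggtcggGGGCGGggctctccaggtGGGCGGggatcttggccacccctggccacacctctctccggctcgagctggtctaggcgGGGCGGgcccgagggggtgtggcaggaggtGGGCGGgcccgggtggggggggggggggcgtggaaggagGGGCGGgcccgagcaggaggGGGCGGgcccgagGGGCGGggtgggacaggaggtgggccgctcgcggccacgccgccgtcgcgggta
MST1R, chr3:49903874-49904123, minus strand: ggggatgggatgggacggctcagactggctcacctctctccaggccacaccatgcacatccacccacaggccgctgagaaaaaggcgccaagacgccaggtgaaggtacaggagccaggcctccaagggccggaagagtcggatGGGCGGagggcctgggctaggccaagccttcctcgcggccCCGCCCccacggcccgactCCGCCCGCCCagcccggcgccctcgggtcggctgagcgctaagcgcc
MET, chr7:116671946-116672195, plus strand: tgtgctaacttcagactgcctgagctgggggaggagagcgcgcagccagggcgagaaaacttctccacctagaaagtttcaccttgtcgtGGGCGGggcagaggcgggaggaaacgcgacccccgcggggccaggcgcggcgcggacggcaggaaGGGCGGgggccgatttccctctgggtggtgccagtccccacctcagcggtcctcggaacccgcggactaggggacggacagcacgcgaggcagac
FGFR3, chr4:1793043-1793292, plus strand: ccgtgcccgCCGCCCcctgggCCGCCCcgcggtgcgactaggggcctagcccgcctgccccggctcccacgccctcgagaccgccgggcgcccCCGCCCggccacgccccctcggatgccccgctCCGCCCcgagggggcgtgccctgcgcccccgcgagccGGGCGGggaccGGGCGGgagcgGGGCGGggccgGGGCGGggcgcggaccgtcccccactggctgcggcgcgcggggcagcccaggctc
The upstream sequences of 9 of the 10 members were searched, and FGFR1 was not analysed here. The FGFR4 stretch held 7 GC boxes and the FGFR3 stretch 8, while MST1R held 4 and MET 2, so both pairs carry the motif. The motif is not particular to these pairs. The stretches of RET, FGFR2, AXL and EPHA2 also held it, and among the searched members only that of DDR1 did not. A GC box was present in 42.6% of 35116 upstream stretches of the same length. The GC content was 79.6% for FGFR4, 70.8% for MST1R, 68.4% for MET and 86.8% for FGFR3, beside a median of 58% over all stretches. None of the 4 held a CCAAT box (CCAAT, 32.0% of stretches), a TATA box (TATAAA, 10.7%), an AP-1 motif (TGANTCA, 6.57%) or an AP-2 motif (GCCNNNGGC, 19.8%), each searched on both strands. These matches are letters in a window and say nothing about binding.

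FGFR4 was the member with the highest level of all in the drug-adapted cells. FGFR4 (Entrez 2264, GRCh38 chromosome 5, 177086915 to 177098144, plus strand) encodes a receptor known for binding FGF19 together with the co-receptor beta-Klotho. Its normalised read counts were 128, 120 and 141 in Control, 52.8, 43.6 and 31.8 in DTP, 2060, 2540.5 and 2649 in DTEP and 2341, 3065 and 1559 in LR libraries. The DTP libraries were all below Control, and every DTEP and LR library was above every Control library. From Control to DTP it fell by 1.60 on the log2(value + 1) scale (SE 0.24, limma adjusted p 0.000188), a 3.03-fold lower mean. From DTP to DTEP it rose by 5.81 (SE 0.24, limma adjusted p 3.43e-09), a 56.5-fold higher mean, the 44th largest log2 rise of 13794 genes tested. The DTEP and LR libraries overlapped, with a difference of -0.10 (95% interval -0.62 to 0.42, limma adjusted p 0.773). Against Control the mean was 18.6-fold higher in DTEP and 17.9-fold higher in LR. In bulk RNA, more cells with the transcript and more transcript per cell cannot be told apart.

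MST1R followed the same course at a lower level. MST1R (Entrez 4486, chromosome 3, 49887002 to 49903873, minus strand) encodes the receptor of macrophage-stimulating protein. It had 6.81, 8.86 and 8.80 normalised read counts in Control, 4.38, 3.85 and 4.55 in DTP, 138, 203 and 187 in DTEP and 200, 211 and 186 in LR libraries. As with FGFR4, the DTP libraries were the lowest and the DTEP and LR libraries overlapped far above Control. It fell by 0.79 from Control to DTP (SE 0.17, limma adjusted p 0.00189) and rose by 5.05 from DTP to DTEP (SE 0.17, limma adjusted p 7.2e-10), a 41.3-fold higher mean. LR and DTEP differed by 0.20 (95% interval -0.17 to 0.56, limma adjusted p 0.409). The mean was 21.6-fold higher in DTEP and 24.4-fold higher in LR than in Control. Of its transcript length, 6.85% is shared with a long non-coding RNA gene on the opposite strand (GENCODE v44), and the counting did not use strand.

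**Figure D1:**
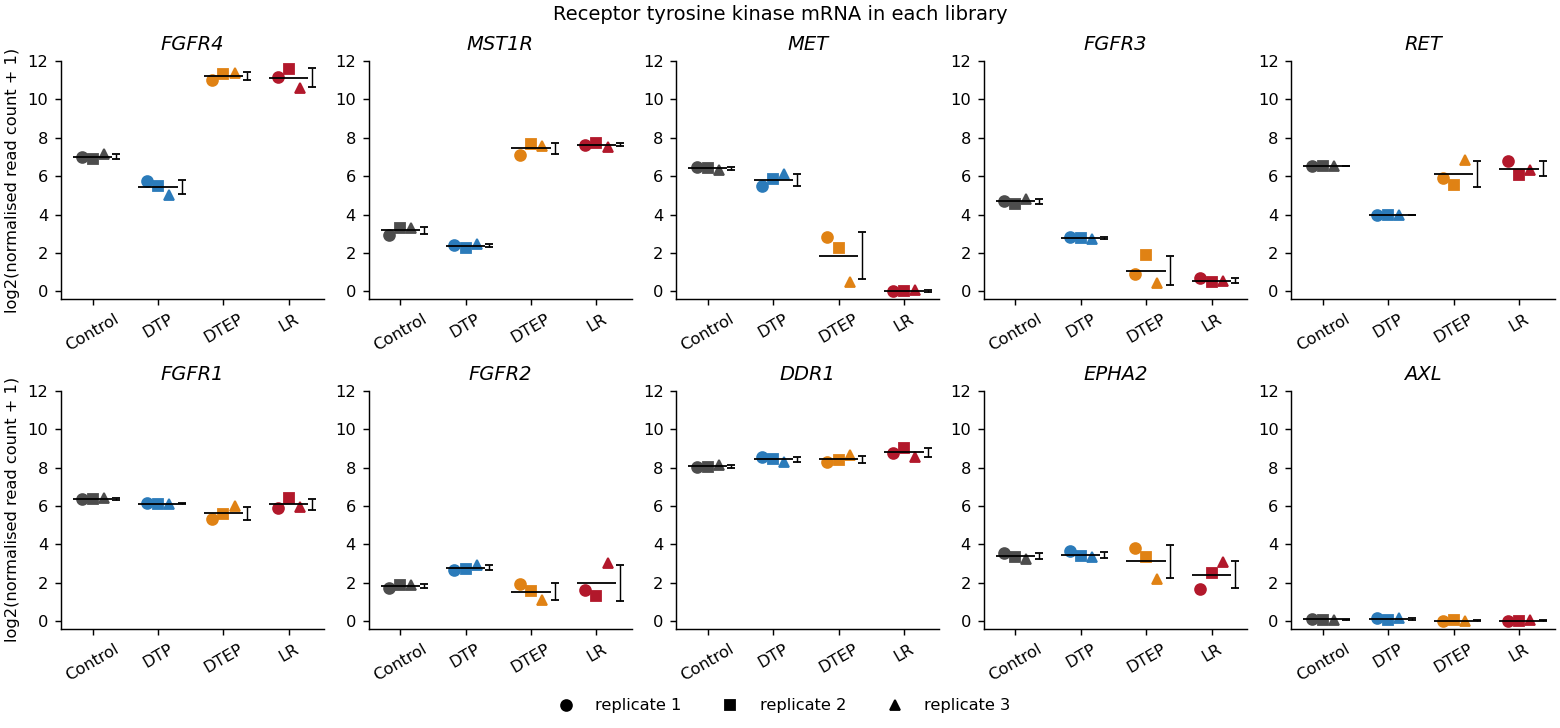
Each panel gives a receptor's log2(normalised read count + 1) in the 12 libraries, with a marker for each replicate number, a line at the group mean and a bar of 1 SD beside it. FGFR4 and MST1R dip in DTP and are at their highest in DTEP and LR, MET and FGFR3 descend to near 0 in LR, RET dips in DTP alone, and AXL lies near 0 throughout.

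MET went the other way and was all but undetected in the resistant cells. MET (Entrez 4233, chromosome 7, 116672196 to 116798377, plus strand) encodes the receptor of hepatocyte growth factor and is the family partner of MST1R. Its normalised read counts were 89.7, 84.4 and 79.1 in Control, 44.5, 56.5 and 68.8 in DTP, 6.08, 3.83 and 0.393 in DTEP and 0, 0 and 0.0484 in LR libraries. The 4 groups did not overlap and descended in the order of treatment time, and the 3 LR libraries held 1 MET read together, against 5201 in Control. The DTP level was 1.49-fold below Control without passing the test (log2 change -0.59, limma adjusted p 0.285, 0.0108 when only those 6 libraries were fitted and 0.0170 without DTEP replicate 3). From DTP to DTEP it fell by 3.97 (SE 0.45, limma adjusted p 8.07e-06), a 16.5-fold lower mean, or 26.8-fold without DTEP replicate 1. Pooled over libraries and corrected for depth, MET reads were 225-fold fewer in LR than in DTEP (95% exact counting interval 39.9 to 8917) and 5266-fold fewer than in Control (945 to 208051). These intervals cover counting error only and leave out the spread between libraries. The DTEP libraries held 127, 93 and 7 MET reads. The LR change against DTEP, -1.84 on the log2(value + 1) scale with limma adjusted p 0.0353, depends on the added 1 and was -4.33 with 0.1 added. That call was lost with only the 6 libraries fitted (adjusted p 0.301) and with no filter (0.0598). Of all genes, 0% and 2.63% passed in those settings, beside 7.35% in the main fit. The MET call was also lost without any 1 of 10 of the 12 libraries, the exceptions being DTEP replicate 3 and DTP replicate 3.

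FGFR3 fell on entry into DTP and again in DTEP. FGFR3 (Entrez 2261, chromosome 4, 1793293 to 1808867, plus strand) encodes another fibroblast growth factor receptor. It had 25.0, 22.8 and 26.9 normalised read counts in Control, 6.05, 5.92 and 5.53 in DTP, 0.861, 2.76 and 0.337 in DTEP and 0.634, 0.387 and 0.436 in LR libraries. The Control, DTP and DTEP libraries did not overlap, and those of DTEP and LR did. FGFR3 fell by 1.92 from Control to DTP (SE 0.29, limma adjusted p 0.000212) and by 1.70 from DTP to DTEP (SE 0.29, limma adjusted p 0.000247). LR and DTEP differed by -0.51 (95% interval -1.14 to 0.13, limma adjusted p 0.225), which did not pass. The FGFR3 mean was 18.9-fold lower in DTEP and 51.2-fold lower in LR than in Control. Without DTEP replicate 2, its highest DTEP library, the DTEP mean was 41.6-fold lower. FGFR4 and FGFR3 thus had opposite signs against Control in all 6 of these libraries, while both fell on entry into the DTP state.

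RET was low in DTP cells alone. RET (Entrez 5979, chromosome 10, 43077069 to 43130351, plus strand) encodes a receptor that binds its ligands through co-receptors of the GFRA family and is known as a target of the estrogen receptor in breast cancer. Its normalised read counts were 91.5, 90.7 and 90.8 in Control, 14.9, 14.8 and 14.6 in DTP, 60.0, 46.1 and 116 in DTEP and 111, 65.4 and 77.9 in LR libraries. The Control and DTP libraries lay close together within each group and far apart between them, and the DTEP and LR libraries spread around the Control level. RET fell by 2.55 from Control to DTP (SE 0.28, limma adjusted p 2.4e-05), a 6.17-fold lower mean, and rose by 2.14 from DTP to DTEP (SE 0.28, limma adjusted p 2.75e-05), a 5.03-fold higher mean. The difference from Control was -0.40 in DTEP (95% interval -1.01 to 0.21) and -0.14 in LR (95% interval -0.74 to 0.47), with limma adjusted p of 0.237 and 0.690. Without DTEP replicate 3, its highest DTEP library, the DTEP level was below Control by the test (log2 change -0.78, limma adjusted p 0.00407).

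The other 2 fibroblast growth factor receptors moved less. FGFR1 (Entrez 2260, chromosome 8, 38411143 to 38468635, minus strand) had 80.1, 81.5 and 85.8 normalised read counts in Control, 70.4, 67.6 and 67.1 in DTP, 39.0, 46.1 and 62.2 in DTEP and 58.0, 85.4 and 59.6 in LR libraries. All DTEP libraries were below all Control libraries, and the LR libraries overlapped with Control. FGFR1 fell by 0.76 from Control to DTEP (SE 0.18, limma adjusted p 0.00331), a 1.68-fold lower mean. From DTP to DTEP it fell by 0.50 (limma adjusted p 0.0285), a call lost in 6 of the 23 alternatives, without any 1 DTP library, without DTEP replicate 1 or 2 and with only those 6 libraries fitted. FGFR2 (Entrez 2263, chromosome 10, 121478330 to 121598458, minus strand) had 2.30, 2.66 and 2.66 in Control, 5.32, 5.68 and 6.62 in DTP, 2.87, 1.98 and 1.12 in DTEP and 2.03, 1.49 and 7.17 in LR libraries. It was the only member that rose from Control to DTP (log2 change 0.95, SE 0.37, limma adjusted p 0.0432), and this call was lost in 12 of 22 alternatives, among them without any 1 Control or DTP library and without DTEP replicate 2, with adjusted p up to 0.108 without DTP replicate 3. From DTP to DTEP it fell by 1.24 (SE 0.37, limma adjusted p 0.00950). LR replicate 3 held the highest FGFR2 value of all libraries, and without it the LR difference from Control turned from 0.16 to -0.36, neither passing the test.

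DDR1 and EPHA2, which sense the matrix and neighbouring cells, had log2 changes below 1 in size in every comparison. DDR1 (Entrez 780, chromosome 6, 30880970 to 30900156, plus strand) had 257, 259 and 279 normalised read counts in Control, 370, 343 and 317 in DTP, 308, 337 and 396 in DTEP and 429, 525 and 379 in LR libraries. Every treated library was above every Control library. DDR1 rose by 0.73 from Control to LR (SE 0.15, limma adjusted p 0.000946), a 1.68-fold higher mean, and by 0.38 from Control to DTEP (limma adjusted p 0.0425), a call lost in 15 of 23 alternatives. Those were 8 of the 12 in which a library was left out, DESeq2, both other scalings, no filter, no trend, the replicate block and only those 6 libraries. For DTP against Control the log2 change was 0.37 with limma adjusted p 0.0501, below 0.05 in 11 of 23 alternatives. EPHA2 (Entrez 1969, chromosome 1, 16124337 to 16156069, minus strand) had 10.7, 8.97 and 8.52 in Control, 11.5, 9.48 and 9.21 in DTP, 13.1, 9.02 and 3.54 in DTEP and 2.24, 4.59 and 7.41 in LR libraries. EPHA2 passed the test in none of the 5 comparisons. In LR, where all 3 libraries were below Control, its log2 change against Control was -0.95 (95% interval -1.82 to -0.09, limma adjusted p 0.0518). That adjusted p was below 0.05 in 7 of 23 alternatives, at 0.0118 without DTEP replicate 3, 0.0296 when DTEP replicate 1 was left out and 0.0171 when LR replicate 3 was.

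AXL was at the limit of detection in every state. AXL (Entrez 558, chromosome 19, 41219223 to 41261766, plus strand) encodes the receptor of GAS6 and is often named among bypass receptors. Over 3 libraries each, Control held 4 reads and DTP 5, while DTEP and LR held 1 each, and no library exceeded 0.115 normalised read counts. AXL reached a value of 1 in no library, and the filter asked for 3 such libraries, so it was left out of the test, and no fold is given. With no filter, 1 of the 5 comparisons passed, DTEP against DTP (log2 change -0.10, limma adjusted p 0.0231), which rests on those 1 and 5 reads.

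Over the 9 members tested (AXL being left out by the filter), 5 passed an adjusted p of 0.05 from Control to DTP, 1 of them higher and 4 lower, beside 54% of all 13794 genes in either direction (25.2% higher and 28.8% lower). From DTP to DTEP 7 passed, 3 higher and 4 lower, beside 68.2% of all genes (35.7% and 32.6%). From DTEP to LR 1 passed, MET, beside 7.35% (3.04% higher and 4.31% lower). Against Control 6 passed in DTEP, 3 in each direction, beside 58.2% (29.5% higher and 28.7% lower), and 5 in LR, 3 higher and 2 lower, beside 62.8% (30.2% and 32.6%). With an absolute log2 change above 2 as well, RET alone was called, lower, from Control to DTP, beside 4.92% of all genes (1.01% higher and 3.9% lower). From DTP to DTEP 4 members were called, with FGFR4, MST1R and RET higher (8.13% of all genes) and MET lower (7.02%). From DTEP to LR 0 were called, beside 0.681% of all genes (0.225% higher and 0.457% lower). MET was called there by edgeR and by DESeq2, and 3 of the 9 members, MET, FGFR1 and DDR1, had an unadjusted limma p under 0.05. Against Control 4 were called in DTEP (10.6%) and the same 4 in LR (12.8%), which were FGFR4 and MST1R higher and MET and FGFR3 lower. Of all genes, 4.43% were called higher and 6.2% lower in DTEP, and 5.03% and 7.8% in LR. The comparisons share libraries. The median log2 change of the 9 members was -0.59, -0.35 and 0.20 in the 3 successive comparisons, beside -0.013, 0.076 and -0.073 over all genes.

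**Figure D2:**
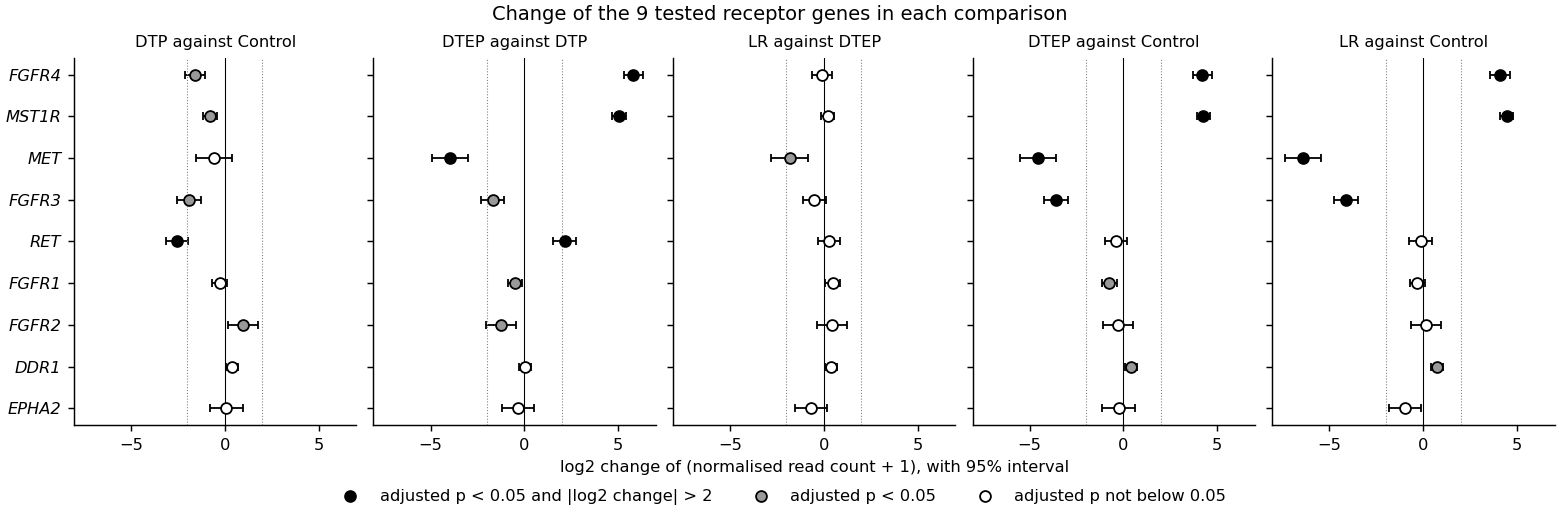
Points are limma log2 changes of (normalised read count + 1) of the 9 tested receptors in each comparison, with 95% intervals, filled black where the adjusted p is below 0.05 and the absolute change above 2 (dotted lines), grey for the adjusted p alone and white otherwise. FGFR4 and MST1R lie at 5.81 and 5.05 in DTEP against DTP and near 0 in LR against DTEP, and MET lies at -6.39 in LR against Control.

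In DTEP replicate 3 most receptors were nearer the LR libraries than the other DTEP libraries. On the log2(value + 1) scale, 7 of the 9 tested members in that library were nearer the LR mean than the mean of the other DTEP libraries, against 2 of 9 for DTEP replicates 1 and 2 each. Within the range of the LR libraries lay 5 of 9 in DTEP replicate 3, 2 in replicate 1 and 3 in replicate 2. Neither count was made over all genes. Across genes, Pearson's r of DTEP replicate 3 was 0.971 to 0.986 with LR and 0.934 to 0.962 with the other DTEP libraries. The resemblance to LR is thus not particular to the receptors. EPHA2, at 3.54, was inside the LR range (2.24 to 7.41), while MET and RET were outside it. MET was 0.393 in DTEP replicate 3 against 6.08 and 3.83 in the others, and RET was 116 against 60.0 and 46.1. Without this library, 6 of the 9 members passed the test in LR against DTEP, beside 47.5% of all genes. MET (limma adjusted p 2e-05), FGFR3 (0.0162) and EPHA2 (0.0131) were then lower in LR, and FGFR1 (0.00691), RET (0.0177) and DDR1 (0.02) higher. FGFR4 and MST1R did not pass the test in that setting either. MET was then also called lower, with a log2 change of -2.52.

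Levels of different receptors were compared per kilobase of the GENCODE MANE Select transcript. That takes 1 transcript length per gene, and which transcripts the cells made was not tested. Overlap or its absence between genes therefore covers the spread between libraries only. Per kilobase, DDR1 was the highest member in Control (69.1 ± 3.20, SD, n = 3) and DTP (89.5 ± 6.94), followed by FGFR4 (41.9 ± 3.51 and 13.8 ± 3.39). In DTEP and LR, FGFR4 was the highest (781 ± 101 and 751 ± 243), followed by DDR1 (90.4 ± 11.7 and 116 ± 19.3) and MST1R (36.9 ± 7.14 and 41.8 ± 2.65). In Control, the order went on with RET, FGFR1, MET, FGFR3, EPHA2, MST1R, FGFR2 and AXL. RET (16.1 to 16.3 over libraries), FGFR1 (14.1 to 15.1) and MET (11.6 to 13.2) did not overlap as neighbours in that order, nor did EPHA2 (2.16 to 2.70) and MST1R (1.43 to 1.86). In DTEP, RET (8.21 to 20.7) overlapped with FGFR1 (6.84 to 10.9), MET (0.0576 to 0.891) with FGFR2 (0.243 to 0.621), and FGFR2 with FGFR3 (0.0783 to 0.642). The summed per-kilobase level of the 10 receptors was 165 ± 6.81 in Control and 132 ± 9.04 in DTP, against 934 ± 122 in DTEP and 937 ± 265 in LR (SD, n = 3). FGFR4 made up 25.4% of that sum in Control and 10.4% in DTP, but 83.7% in DTEP and 79.4% in LR, and DDR1 42.0%, 67.6%, 9.70% and 12.7%. In DTEP and LR libraries FGFR4 took 0.159% to 0.294% of all assigned reads.

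**Figure D3:**
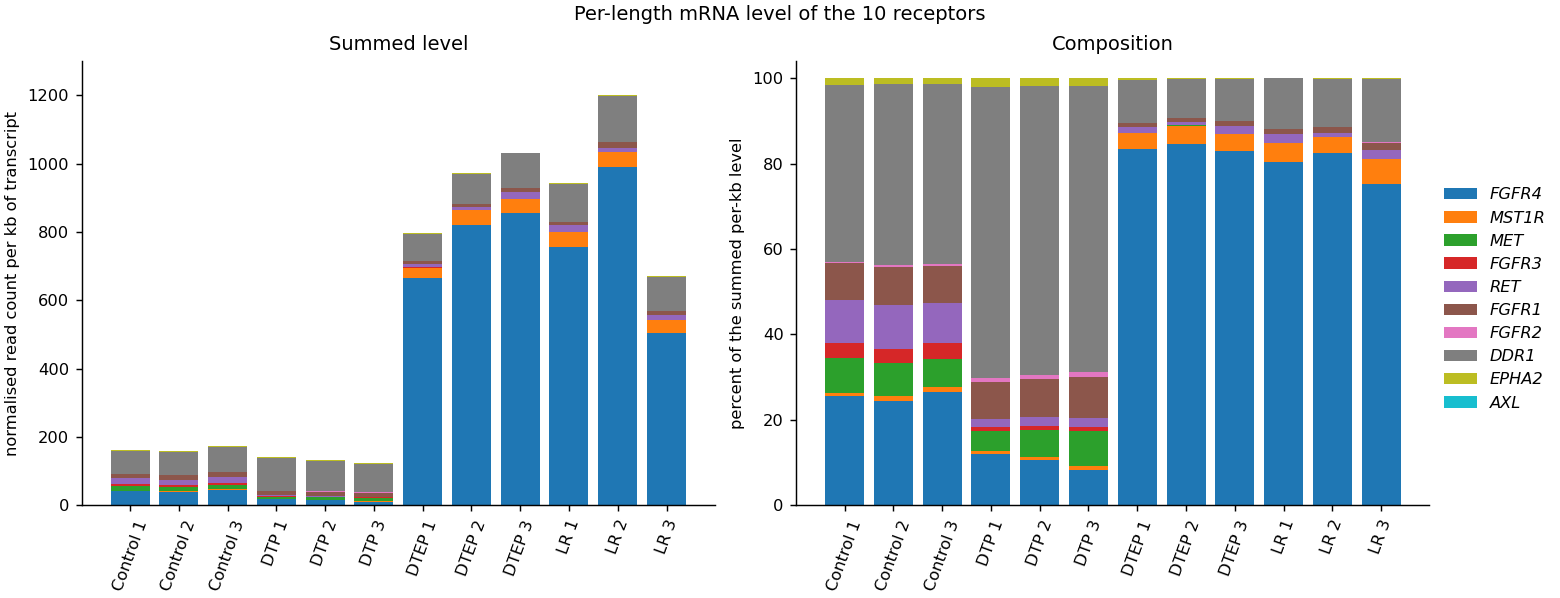
Stacked bars give each library's normalised read count per kilobase of transcript for the 10 receptors (left) and each receptor's percent of that library's sum (right). FGFR4 fills most of every DTEP and LR bar, where the sums lie between 670 and 1200, while DDR1 is the largest share in Control and DTP.

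The listed ligand genes were mostly at or under the filter in these cells. Of 31 ligand genes, 6 were tested, and the list held no collagen, the ligand of DDR1. The tested genes were MST1, GAS6 and the ephrins EFNA1, EFNA3, EFNA4 and EFNA5. The ephrins, named after their values were seen, had means of 81.3, 23.9, 31.3 and 27.5 in Control. HGF, the ligand of MET, and FGF19, named after their values were seen, had no read in any of the 12 libraries, which allows up to 0.173. Among the tested, 5 rose from Control to DTP (25.2% of all genes rose) and 5 fell from DTP to DTEP (32.6% of all genes fell), with a median log2 change of 1.06 and -1.78. MST1, which encodes the ligand of MST1R, had 1.47, 1.74 and 1.54 normalised read counts in Control, 15.6, 11.2 and 9.90 in DTP, 7.75, 6.88 and 22.9 in DTEP and 12.3, 9.80 and 11.97 in LR libraries. It rose at DTP (log2 change 2.33, limma adjusted p 0.000186), where its receptor fell, and stayed above Control in LR (2.25, limma adjusted p 0.000126). Near-identical pseudogene copies of MST1 could have split its reads, so these values are uncertain. GAS6, the ligand of AXL and MERTK, went from Control (3.48 to 4.78) over DTP (6.86 to 8.77) and DTEP (0 to 1.00) to LR, where it had no read. It rose at DTP (log2 change 0.72, limma adjusted p 0.0162) and fell from DTP to DTEP (-2.64, limma adjusted p 7.49e-07).

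Most co-receptors fell from DTP to DTEP. Of 17 listed 13 were tested, and 10 fell and 3 rose in that step (32.6% and 35.7% of all genes), with a median log2 change of -1.65. GFRA1, the GDNF co-receptor of RET, went from Control (67.3 to 78.1 normalised read counts) over DTP (202 to 228) and DTEP (1.29 to 33.6) to LR (0 to 0.291). Its DTP libraries were all above Control without passing the test (log2 change 1.52, limma adjusted p 0.0736), which pools the spread of all 4 groups. GFRA1 fell by 4.56 from DTP to DTEP (limma adjusted p 7.21e-05). RET and GFRA1 thus had opposite directions in that step. NRP1, a neuropilin that acts as a co-receptor of growth factors, went from Control (79.5 to 86.7) over DTP (193 to 326) and DTEP (1.85 to 43.3) to LR (0.0553 to 0.630), and fell by 4.08 from DTP to DTEP (limma adjusted p 0.000303). NRP2, its paralog, rose by 2.12 from Control to DTP (limma adjusted p 6.91e-05) from a mean of 0.549 to 5.79. KLB, which encodes beta-Klotho and was named after its values were seen, had a mean of 0.0155 in Control and no read in DTP, but a mean of 1.57 in DTEP and 1.63 in LR, and it rose from DTP to DTEP (log2 change 1.32, limma adjusted p 3.07e-05).

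Among the proteases and their inhibitors, 9 of 11 genes were tested, and from DTP to DTEP 2 rose and 2 fell (35.7% and 32.6% of all genes). ADAM10, which cleaves receptor ectodomains, fell from a mean of 159 in Control to 67.0 in DTP (log2 change -1.28, limma adjusted p 0.00130) and rose to 287 in DTEP (2.10, limma adjusted p 1.56e-05). TIMP2, a metalloprotease inhibitor, fell from a mean of 18.1 in DTP to 2.06 in DTEP (-2.86, limma adjusted p 2.43e-05), and the LR libraries lay between 0 and 0.0484.

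Among the 23 adaptors and signal relay genes, all of them tested, 8 rose and 9 fell from DTP to DTEP (35.7% and 32.6% of all genes), with a median log2 change of -0.01. GRB2, the adaptor that links activated receptors to RAS, had 171 to 181 normalised read counts in Control and 164 to 167 in DTP, against 910 to 1304 in DTEP and 964 to 1196 in LR. It did not overlap between early and late groups and rose by 2.66 from DTP to DTEP (limma adjusted p 3.15e-08). GAB1, the docking protein used by MET and by fibroblast growth factor receptors, rose from a mean of 14.1 in DTP to 71.9 in DTEP (2.18, limma adjusted p 6.74e-05). GRB7, which lies beside ERBB2 in its amplicon, rose from a mean of 547 in Control to 1300.2 in DTP (1.24, limma adjusted p 0.00357) and fell to 149 in DTEP (-3.22, limma adjusted p 1.4e-06). GRB10, a related adaptor, fell from a mean of 197 in DTP to 15.7 in DTEP (-3.75, limma adjusted p 7.16e-05).

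Several negative regulators fell in DTP and rose in DTEP, as FGFR4 and MST1R did. Of 20 ubiquitin ligases, phosphatases and feedback inhibitors 19 were tested. From Control to DTP 1 rose and 7 fell (25.2% and 28.8% of all genes), and from DTP to DTEP 10 rose and 3 fell (35.7% and 32.6%), of which 7 and 0 were called (8.13% and 7.02%). SPRY4, a feedback inhibitor of receptor signalling to ERK, had 7.17 to 7.91 normalised read counts in Control and 0.288 to 0.418 in DTP, against 52.7 to 162 in DTEP and 39.4 to 98.7 in LR. SPRED1, which acts on RAS signalling in a similar way, had 12.5 to 20.8 in Control and 0.835 to 1.04 in DTP, against 74.2 to 105 in DTEP and 97.4 to 135 in LR. Neither gene overlapped between Control, DTP and the late groups. SPRY4 fell by 2.69 and then rose by 6.29, and SPRED1 fell by 3.25 and then rose by 5.61, with limma adjusted p of 0.000139 and 6.62e-08 and of 6.03e-07 and 2.28e-09.

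Of 48 other receptor tyrosine kinases 29 were tested, and 6 rose and 18 fell from DTP to DTEP (35.7% and 32.6% of all genes), with a median log2 change of -0.70. MERTK, a TAM receptor like AXL, went from Control (28.9 to 32.7 normalised read counts) over DTP (122 to 142) and DTEP (0.617 to 16.4) to LR (0.0845 to 0.291). It rose by 2.02 from Control to DTP (limma adjusted p 0.0127) and fell by 4.57 from DTP to DTEP (limma adjusted p 2.62e-05). EPHA4, an ephrin receptor related to EPHA2, rose from a mean of 24.2 in Control to 215 in DTP (3.08, limma adjusted p 0.000147) and fell to 96.5 in DTEP (-1.30, limma adjusted p 0.0202). ROR2, a receptor of WNT5A, had at most 0.163 in Control and DTP libraries and 12.9 to 20.7 in DTEP and LR libraries, and rose from DTP to DTEP (4.10, limma adjusted p 5.94e-09). EGFR, a target of lapatinib, fell from a mean of 20.4 in Control to 3.29 in DTP (-2.36, limma adjusted p 6.29e-05) and had 0.111 to 0.921 in LR libraries.

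**Figure D4:**
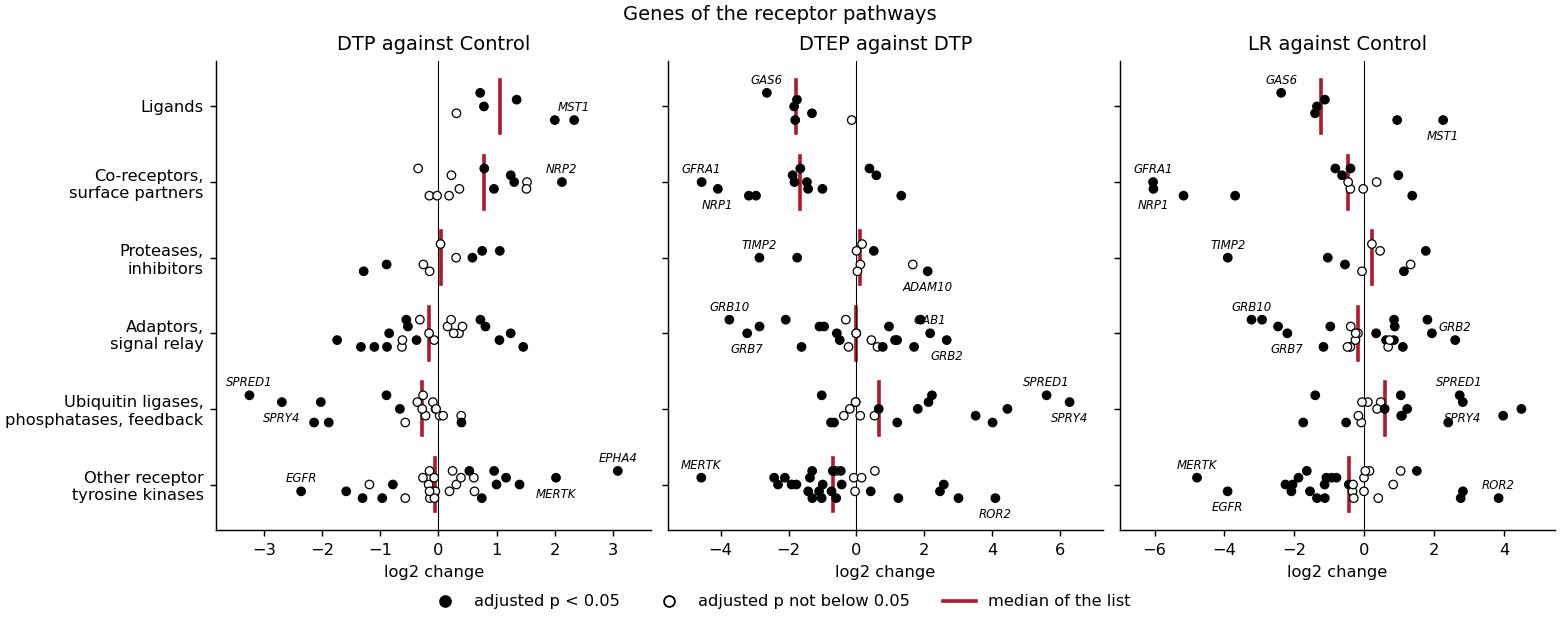
Points are the tested genes of each list placed by their limma log2 change in 3 comparisons, black where the adjusted p is below 0.05, with a red line at the median of the list. SPRED1 and SPRY4 lie to the left in DTP against Control and at 5.61 and 6.29 in DTEP against DTP, where GFRA1, NRP1 and MERTK are the leftmost named genes.

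The tested genes that overlap the 500 kb on either side of a receptor's start were compared between LR and Control. Some of their own starts lie farther out. Around FGFR4, 3 of 20 rose and 7 fell (30.2% and 32.6% of all genes), and F12, which encodes coagulation factor XII, was the only one called. Of all genes, 5.03% were called higher and 7.8% lower in LR against Control. F12, 323 kb from the FGFR4 start, had a mean of 0.309 in Control and 0.230 in DTP, against 16.6 in DTEP and 11.2 in LR. NSD1, at 44.9 kb, had a log2 change of 0.18 (limma adjusted p 0.532). Around MST1R, 17 of 33 rose and 3 fell, with MST1 (214 kb from the MST1R start), AMT and NICN1 called higher and BSN called lower. Around MET, 5 of 6 fell and 1 rose, with 0 called by limma. CAV1 (caveolin-1), whose start lies at -147 kb from that of MET, had a mean of 2.31 in Control and 51.6 in DTP, against 3.38 in DTEP and 0.0141 in LR, so that it shared the fall from DTP to DTEP and not the level in DTP. Around FGFR3, 2 of 13 rose and 5 fell, with 0 called. On the log2(value + 1) scale, no tested neighbour of FGFR4, MST1R, MET or FGFR3 changed by as much as its receptor in LR against Control, but that scale understates low genes. By the ratio of group means, F12 was 36.2-fold higher, against 17.9-fold for FGFR4, and BSN, with 4 reads in LR, was 122-fold lower, against 24.4-fold higher for MST1R. CAV2, a neighbour of MET, had 35 reads in Control and 0 in LR, so no fold is given for it. F12, CAV1, NSD1 and the other neighbours were named after their values were seen.

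**Figure D5:**
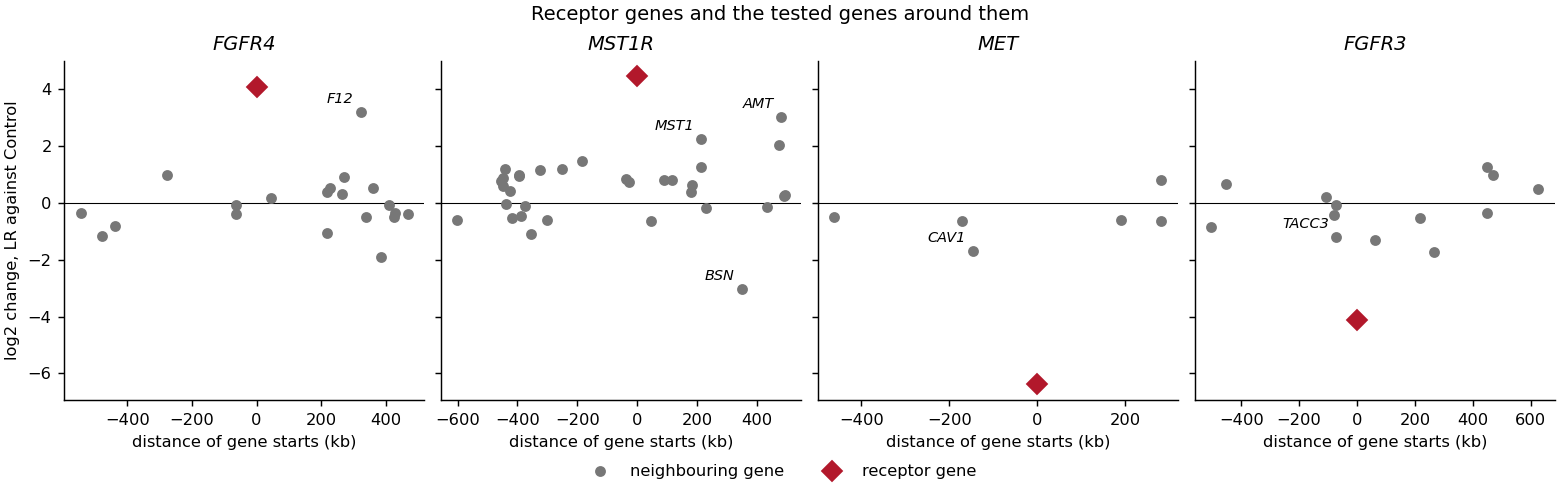
Shown are tested genes that overlap the 500 kb on either side of the start of FGFR4, MST1R, MET or FGFR3. Some of their own starts lie farther out. Genes are placed by the distance of their start from the receptor's start in kb and by their limma log2 change in LR against Control. The receptor is a red diamond at 0. On this log2(value + 1) scale FGFR4 and MST1R lie above all their neighbours at 4.10 and 4.46, and MET and FGFR3 below all theirs at -6.39 and -4.12.

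For the receptors called in some comparison, the 3 genes with the nearest profile over the 12 libraries were sought among 10716 genes with a symbol and a mean of at least 5. The measure was the root mean square difference of log2(value + 1) profiles after centring. MST1R was nearest to NKD1 (0.24), a WNT pathway inhibitor, then ARMCX2 (0.31) and PNPLA3 (0.32). FGFR4 was nearest to PNPLA3 (0.36), a lipid droplet enzyme, then NKD1 (0.37) and SIRPA (0.41). Both receptors thus shared NKD1 and PNPLA3, whose means were 0.452 and 0.0540 in DTP and 69.6 and 37.5 in DTEP. MET was nearest to TMEM178B (0.25), GNAQ (0.26), a widely expressed G protein subunit, and MAP4K4 (0.27), and GNAQ went from a mean of 128 in Control to 0.0323 in LR. FGFR3 was nearest to SYNPO2L (0.26), SERPINA1 (0.30) and CPE (0.31), and RET to CBX5 (0.30), XYLB (0.31) and MPHOSPH9 (0.32). The profiles of the members themselves varied around their mean by 1.08 for RET to 2.73 for MET on the same scale.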

How the data were processed

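RNA of BT474 cells was sequenced in 4 groups of 3 libraries, grouped by the sample titles. The authors prepared stranded mRNA libraries, used Rsubread to align to hg38 and to count reads in RefSeq gene models at default settings, which ignore strand. The submitters' processing notes also name bcl2fastq and edgeR. The deposited table holds a signal per gene, reads scaled to a fixed library total and by trimmed means. All 199680 deposited values above 0 (100%) were whole multiples of the value of 1 read (tolerance 1e-06 of a read), so read numbers were recovered. limma 3.58.1 (R 4.3.3) was fitted to log2(value + 1) of all 12 libraries without covariates, with a variance trend, two-sided, and with Benjamini-Hochberg adjustment over the 13794 genes that reached a value of 1 in 3 or more libraries. Genes are said to rise or fall at an adjusted p below 0.05 and are called where the absolute log2 change also exceeds 2. Changes on this scale understate low genes. The steps were tested on simulated data.

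The members and gene lists were chosen with earlier results of these data known. Named genes are the members, up to 2 genes with the largest and 2 with the smallest change among the called genes of each list, and the nearest profiles. Alternatives were other pseudocounts, filters and scalings, no trend, only 6 libraries, a replicate block, edgeR 4.0.16, DESeq2 1.42.0, a lower threshold on the change and leaving out each library. Positions came from RefSeq (GRCh38.p14) and transcript lengths from GENCODE v44, and upstream sequences were searched with Python 3.11.15. The labels give no batch, so none was tested.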

Additional observations from a re-analysis of the deposited data

How the results depend on the processing

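The 10 counts of members kept their size under most alternatives. Beside 1 member called from Control to DTP (RET), there were 3 at an absolute log2 change above 1 and 2 with DESeq2, with edgeR and with a pseudocount of 0.1 or 0.5. Beside 0 called from DTEP to LR, there was 1 at an absolute log2 change above 1, with DESeq2, with edgeR and with a pseudocount of 0.1 or 0.5, and 0 to 1 when each library was left out, the 1 being without DTEP replicate 3. From Control to DTP 8 instead of 5 passed the adjusted p with only the 6 libraries fitted, beside 73.0% instead of 54.0% of all genes. From DTEP to LR 0 instead of 1 passed with no filter and with only the 6 libraries. Of all genes, 2.63% and 0% passed in those settings, beside 7.35% in the main fit. With each library left out, 0 to 6 members passed from DTEP to LR, the 6 being without DTEP replicate 3 (47.5% of all genes). The cause of these shifts was not tested. Only the fits to 6 libraries and those with a library left out use fewer libraries by construction.

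Folds of group means with each library left out were added after seeing the data, and 4 of 22 moved by over 1.5 times, those of MET and FGFR3 in DTEP against DTP and against Control. FGFR4, MST1R, MET and FGFR3 kept direction and call against Control in DTEP and LR under all alternatives in which they were tested. Of the single-gene results, 14 changed sign, none of which passed the test in either form. The DDR1 log2 change from DTP to DTEP, 0.0091, was -0.11 with DESeq2, -0.014 with edgeR, -0.11 with library-size scaling, -0.10 with median-of-ratios scaling, -0.090 without DTEP replicate 3 and -0.047 without DTP replicate 3, and -0.090 to 0.091 when each library was left out. EPHA2 became 0.20 (DTEP against Control, -0.62 to 0.20 over libraries left out) and 0.11 (DTEP against DTP, -0.71 to 0.11) without DTEP replicate 3 and -0.00052 (DTP against Control, up to 0.18) without DTP replicate 1. Without LR replicate 3, FGFR2 became -0.36 (LR against Control, up to 0.49) and -0.079 (LR against DTEP, up to 0.78) and FGFR4 0.16 (LR against DTEP, down to -0.33). RET became 0.032 (LR against Control, down to -0.35) without LR replicate 2 and -0.015 (LR against DTEP, up to 0.64) without DTEP replicate 2. Library-size scaling moved the median log2 change of all genes from DTP to DTEP from 0.076 to -0.033.

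The correlation of same-numbered deviations between groups ranged from -0.44 to 0.36 and exceeded 0.1 in 2 of 18 pairs. Those 2 were DTP with DTEP, at 0.36 for replicate 1 and 0.34 for replicate 3. Differently numbered libraries were not compared, so whether replicate numbers pair the samples is not settled. With the replicate number as a block, 4 members passed the adjusted p from Control to DTP and 5 from Control to DTEP, since FGFR2 (limma adjusted p 0.0544) and DDR1 (0.0641) no longer did. The other counts did not change with the block. Depth limits AXL in all groups and MET in LR, where a few reads set the value.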
